A study of Caenorhabditis elegans with 7 samples.

Results

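The maternal RNA-binding fate determinants are 10 genes of the nematode Caenorhabditis elegans whose messages are loaded into the egg and whose proteins assign early blastomeres to germ line or soma: pie-1, mex-1, mex-3, mex-5, mex-6, pos-1, oma-1, oma-2, spn-4 and zif-1. They were listed by name and matched by gene symbol, with no cutoff on their values, to a count table of 46748 gene identifiers, and all 10 were found there and passed the filter on low counts, which left 13035 tested genes. The table came from RNA sequencing of embryos labelled early, described by the submitters as earlier than gastrulation, and taken from mothers that held 1 or 2 eggs. There were 4 libraries of flp-21(ok889) mutant embryos, numbered 11, 22, 29 and 30, and 3 libraries of wildtype embryos, named N2 in the sample titles and numbered 11, 22 and 30. The gene flp-21 encodes a FMRFamide-like neuropeptide, and the series title concerns neuronal control of what mothers provide in response to social cues, so the comparison asks whether embryos of flp-21 mutants held other amounts of these maternal messages. The labels name no other allele and no treatment shared by the groups. They do not say whether the libraries of a genotype stem from independent cultures, and p-values therefore cover the spread among these libraries, which may be technical. Values per library are given in the order 11, 22, 29 and 30 for the mutant and 11, 22 and 30 for wildtype.

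In the C. elegans zygote, the polarity kinase PAR-1 and the CCCH zinc finger proteins MEX-5 and MEX-6 sort other CCCH proteins, among them PIE-1, MEX-1 and POS-1, towards the germ line blastomeres at each early division. The members act mostly by binding the 3' untranslated regions of maternal messages and repressing or permitting their translation, so a message can be present in a cell long before its protein is made. ZIF-1 is the exception in biochemistry: it is not an RNA-binding protein but the substrate adaptor of a CUL-2 ubiquitin ligase that removes CCCH proteins from somatic blastomeres, and its own message is a target of several of the others. RNA levels as measured here do not show how much protein was made or in which cell.

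Total counts ran from 34164612 to 53620276 in mutant libraries and from 34262203 to 42988763 in wildtype libraries. The flp-21 message itself was counted 2, 1, 5 and 9 times over the mutant libraries, against 24, 2 and 6 times over those of wildtype, too few to check the genotype labels. Marker lists set the libraries apart beyond the early embryo label. Oocyte and eggshell markers (11 of 11 found in the table) summed to 621 to 936 CPM (counts scaled to a common library total) in the mutant and 5418 to 15082 CPM in wildtype, sperm markers (29 of 29) to 65.7 to 168 CPM in mutant embryos, against 7148 to 11591 CPM in wildtype, and adult intestine markers (14 of 14) to 1.14 to 1027 CPM in mutant embryos, against 6167 to 52918 CPM in wildtype. Cuticle markers (13 of 13) summed to 1.24 to 272 CPM in mutant embryos, against 1282 to 9066 CPM in wildtype. Within a genotype these sums were uneven. Intestine markers summed to 1.14, 1027, 939 and 10.1 CPM in the mutant libraries and to 47804, 52918 and 6167 CPM in the wildtype libraries. Cuticle markers summed to 1.24, 272, 236 and 7.55 CPM in the mutant libraries and to 9066, 2054 and 1282 CPM in the wildtype libraries. Early zygotic markers (14 of 15 matched) summed to 60.7 to 84.1 CPM in mutant embryos, against 18.6 to 78.02 CPM in wildtype, where library 22 was the lowest. Meiotic germ line markers (12 of 12) overlapped, at 658 to 978 CPM in mutant embryos, against 522 to 1022 CPM in wildtype. No marker of any list was at 0 in all libraries of a genotype. Whether the RNA of the sperm, adult intestine and cuticle markers came from the embryos themselves cannot be told from these bulk samples. The labels do not say how the embryos were purified. Fewer cells of a type and less RNA per cell cannot be told apart either. Differences between the genotypes below are therefore differences between libraries labelled as embryos. The part of these marker differences in the results on the members was not tested. Wildtype library 30 differed from wildtype libraries 11 and 22 in many of the members, so results are given with and without it where it decides them.

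**Figure D1:**
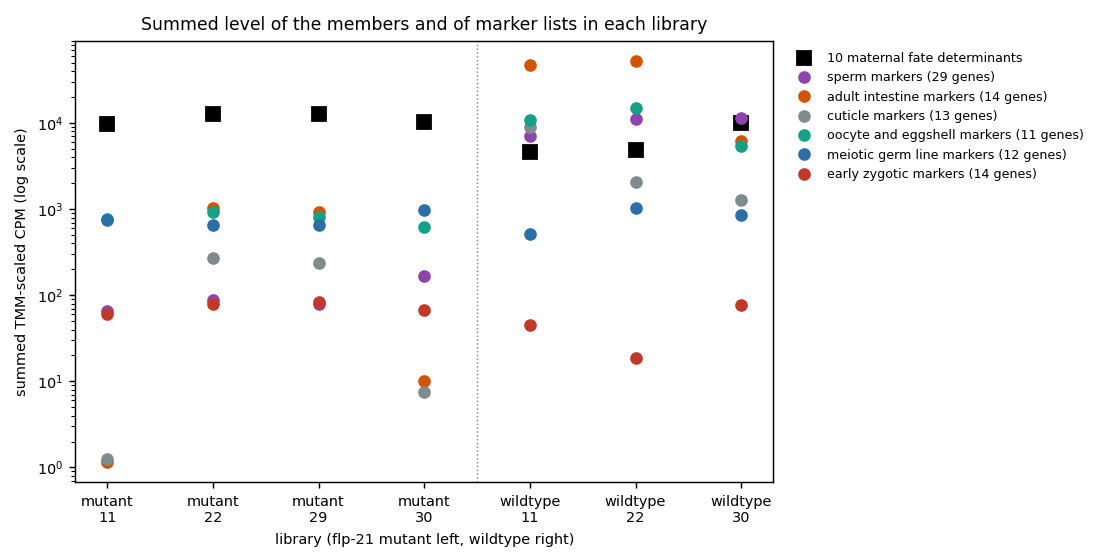
Summed CPM on a log axis for the 10 members (black squares) and for 6 marker lists (circles), with the 4 flp-21 mutant libraries left of the dotted line and the 3 wildtype libraries right of it. The members summed to 9711 to 12793 CPM in mutant embryos, against 4610 to 9925 CPM in wildtype, while the sperm, intestine, cuticle and eggshell markers were lower in each mutant library than in each wildtype library.

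As a group, the members took a larger part of the sequenced RNA in the mutant embryos. Their counts made up 1.17%, 1.33%, 1.35% and 1.02% of all counts in the mutant libraries, against 0.482%, 0.487% and 0.726% in the wildtype libraries. Scaled by TMM, which sets the libraries level on the bulk of genes, they summed to 11379 ± 1561 CPM (SD, n = 4) in mutant embryos, against 6477 ± 2989 CPM (SD, n = 3) in wildtype. On that scale the groups came close, since wildtype library 30 held 9925 CPM and mutant library 11 held 9711 CPM. The edgeR log2 fold change was above 0 for 9 of the 10 members, against 44.8% of all tested genes, and oma-2 was the exception. The median log2 fold change of the members was 0.81, against -0.21 for all tested genes and 0.38 for the 1485 tested genes at or above the mean level of the least abundant member.

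Single tests passed for 3 of the 10 members. With the edgeR quasi-likelihood test, adjusted over all tested genes by Benjamini-Hochberg with a threshold of 0.05, spn-4, zif-1 and mex-6 were higher in the mutant, as were 9.01% of all tested genes. No member was lower (0 in edgeR, also 0 in DESeq2), against 29.4% of all tested genes; at an unadjusted p under 0.05, 5 members were higher and 0 lower. The 10 members are abundant messages, and among those 1485 genes of like or higher level 21.9% were higher and 16.6% lower. The libraries of the genotypes did not overlap, with the mutant above, for 5 members (mex-3, mex-6, pos-1, spn-4 and zif-1) and for 14.1% of all tested genes; with the mutant below, for 0 members and for 30.5%. These shares of all tested genes were not matched for level. None of the 10 members is among the 3791 genes of the authors' deposited table, whose smallest absolute log2 fold change is 1.5.

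**Figure D2:**
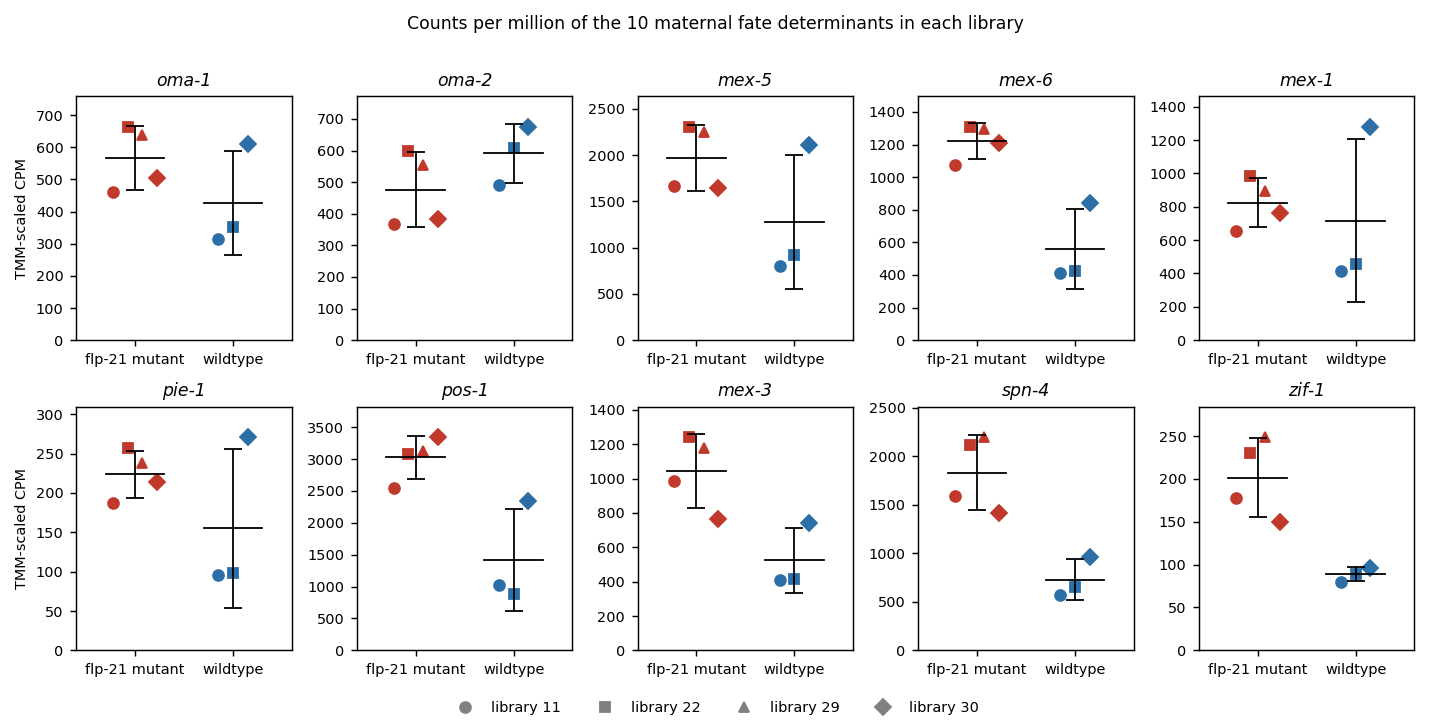
TMM-scaled CPM of each member in each library, with the flp-21 mutant (red) left of wildtype (blue); marker shapes give the library number, horizontal lines the mean and bars ± 1 SD. The wildtype libraries 11 and 22 lie together at the bottom for most members and wildtype library 30 above them, and oma-2 is the only panel with a higher wildtype mean.

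The oma genes encode a pair of CCCH proteins that act redundantly in oocyte maturation and, in the zygote, hold back transcription by retaining the factor TAF-4 in the cytoplasm. The gene oma-1 (WBGene00003864, chromosome IV from 8888976 to 8890987, build WBcel235) had 461, 664, 638 and 506 CPM in the mutant libraries, and 315, 353 and 611 CPM in the wildtype libraries. The ranges overlapped, and the log2 fold change was 0.41 (SE 0.35, 95% interval from -0.37 to 1.20, edgeR adjusted p = 0.395). Its partner oma-2 (WBGene00003865, chromosome V from 8029439 to 8031214) had 367, 599, 555 and 384 CPM in mutant embryos, against 492, 607 and 675 CPM in wildtype. These ranges overlapped too, with a log2 fold change of -0.31 (SE 0.33, 95% interval from -1.04 to 0.42, edgeR adjusted p = 0.492). The fold change of oma-2 was below 0 in all 17 alternative fits, between -0.62 and -0.08, and passed the test in 0 of them.

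Although neither oma gene passed alone, their balance differed between the genotypes. The share of oma-1 in the counts of the pair was 55.7%, 52.6%, 53.5% and 56.9% in the mutant libraries, against 39.1%, 36.7% and 47.5% in the wildtype libraries. Every mutant library was above every wildtype library, of which library 30 was the highest. The mean share was 54.7% ± 1.98 (SD, n = 4) in mutant embryos, against 41.1% ± 5.67 (SD, n = 3) in wildtype, a difference of 13.5 percentage points (two-sided exact permutation test over 35 splits, p = 0.0286, the smallest p these splits can give; adjusted p = 0.0286 over the 2 paralog pairs tested; higher in 4 of 4 mutant libraries). A share within a library does not depend on the scaling between libraries, but it does not remove differences in what the libraries held. Shares of other gene pairs were not computed as a background for either pair. For single genes, all mutant libraries were above all wildtype libraries in 14.1% of all tested genes and below them in 30.5%. Per exon length the shares of oma-1 were 48.9% to 53.2% in the mutant and 33.4% to 43.9% in wildtype, so the pair was near balance in the mutant and oma-2 was the more abundant in each wildtype library.

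The genes mex-5 and mex-6 encode near-redundant CCCH proteins of the anterior cytoplasm, which link PAR polarity to the sorting of the other determinants. For mex-6 (WBGene00003231, chromosome II from 9524174 to 9526366) the mutant libraries held 1073, 1308, 1294 and 1208 CPM, and the wildtype libraries held 413, 423 and 839 CPM. The lowest mutant library was above the highest wildtype library, and mex-6 rose 2.19-fold (log2 fold change 1.13, SE 0.37, edgeR adjusted p = 0.035). For mex-5 (WBGene00003230, chromosome IV from 13353723 to 13356089) the mutant libraries held 1667, 2306, 2253 and 1650.0 CPM and the wildtype libraries 797, 917 and 2107 CPM. Wildtype library 30 lay among the mutant libraries, and the log2 fold change of 0.63 did not pass (SE 0.42, 95% interval from -0.31 to 1.56, edgeR adjusted p = 0.272). The call of mex-6 was lost when mutant library 11, 22 or 29 or wildtype library 11 was left out (edgeR adjusted p between 9.45e-04 and 0.214 over the 17 alternative fits, DESeq2 included).

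The balance of this pair also differed. The share of mex-5 in the counts of mex-5 and mex-6 was 60.8%, 63.8%, 63.5% and 57.7% in the mutant libraries, and 65.9%, 68.4% and 71.5% in the wildtype libraries. The ranges did not overlap, although mutant library 22 and wildtype library 11 came within a few percentage points. The mean share was 61.5% ± 2.83 (SD, n = 4) in mutant embryos, against 68.6% ± 2.83 (SD, n = 3) in wildtype, a difference of -7.12 percentage points (two-sided exact permutation test over 35 splits, p = 0.0286, again the smallest possible; adjusted p = 0.0286 over the 2 pairs; lower in 4 of 4 mutant libraries). Counting error was small beside this spread, the exact 95% binomial interval of mutant library 11 being 60.6% to 61.1%. How the counting divided reads that could map to both genes of a pair is not stated in the header or the labels.

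**Figure D3:**
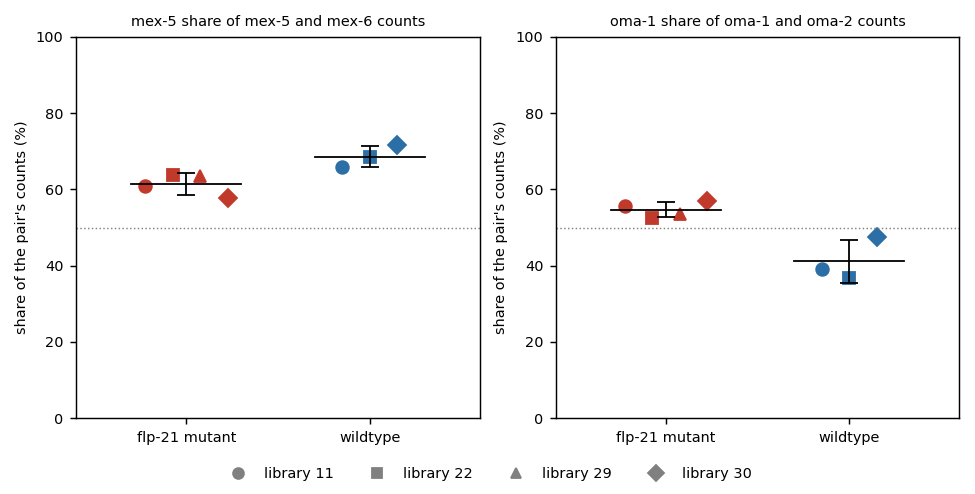
Share of mex-5 in the summed counts of mex-5 and mex-6 (left panel) and of oma-1 in those of oma-1 and oma-2 (right panel), in percent, with the flp-21 mutant (red) left of wildtype (blue); lines give the mean and bars ± 1 SD. In each panel the mutant and wildtype libraries do not overlap, at 57.7% to 63.8% in the mutant and 65.9% to 71.5% in wildtype for mex-5, and at 52.6% to 56.9% in the mutant and 36.7% to 47.5% in wildtype for oma-1.

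The genes pie-1, mex-1 and pos-1 encode CCCH proteins that follow the germ line blastomeres: PIE-1 represses transcription there, MEX-1 is needed for the asymmetric sorting of germ line factors, and POS-1 controls the translation of messages such as glp-1, apx-1 and neg-1. The gene pos-1 (WBGene00004078, chromosome V from 8414085 to 8415255) had 2550.0, 3081, 3124 and 3346 CPM in the mutant libraries and 1020.5, 888 and 2338 CPM in the wildtype libraries. The genotypes did not overlap, but with a wildtype SD of 801 CPM the log2 fold change of 1.10 did not pass (SE 0.42, 95% interval from 0.16 to 2.03, edgeR adjusted p = 0.0632). It passed with DESeq2 (log2 fold change 1.30, adjusted p = 0.00563).

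The gene pie-1 (WBGene00004027, chromosome III from 12426862 to 12429177) had 187, 256, 238 and 214 CPM in the mutant libraries and 95.2, 98.4 and 271 CPM in the wildtype libraries. For mex-1 (WBGene00003228, chromosome II from 11968637 to 11972334) the values were 652, 987, 895 and 761 CPM in the mutant libraries and 414, 455 and 1279 CPM in the wildtype libraries. For both genes wildtype library 30 was the highest of all 7 libraries and wildtype libraries 11 and 22 were the lowest. The log2 fold changes were 0.53 for pie-1 (SE 0.42, edgeR adjusted p = 0.355) and 0.20 for mex-1 (SE 0.45, edgeR adjusted p = 0.761), with 95% intervals from -0.41 to 1.47 and from -0.79 to 1.20. Against wildtype library 30 alone, a fit that holds no spread between wildtype libraries, they turned to -0.055 for pie-1 and -0.42 for mex-1.

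Outside the CCCH family, MEX-3 is a KH domain protein that keeps the pal-1 message silent in the anterior, and SPN-4 is an RRM protein that acts on the skn-1 and glp-1 messages. The gene mex-3 (WBGene00003229, chromosome I from 127297 to 134065) had 986, 1242, 1179 and 763 CPM in the mutant libraries, against 412, 418 and 742 CPM in the wildtype libraries. The groups were separated only by the gap between the libraries numbered 30, and the log2 fold change of 0.99 did not pass (SE 0.37, 95% interval from 0.17 to 1.81, edgeR adjusted p = 0.0561, DESeq2 adjusted p = 0.00765). The gene spn-4 (WBGene00004984, chromosome V from 6783186 to 6784922) had 1589, 2118, 2197 and 1411 CPM in the mutant libraries and 571, 648 and 965 CPM in the wildtype libraries. All mutant libraries were above all wildtype libraries, and spn-4 rose 2.51-fold, the largest change among the members in the fit on all libraries (log2 fold change 1.33, SE 0.36, edgeR adjusted p = 0.0159).

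The ligase adaptor gene zif-1 (WBGene00006977, chromosome III from 9002789 to 9004837) was the least abundant member. It had 178, 230.4, 249 and 149 CPM in the mutant libraries and 80.03, 89.2 and 96.3 CPM in the wildtype libraries. The wildtype libraries lay close together here, library 30 included, and each was below each mutant library. It rose 2.28-fold (log2 fold change 1.19, SE 0.32, edgeR adjusted p = 0.0147), at 202 ± 46.1 CPM (SD, n = 4) in mutant embryos, against 88.5 ± 8.16 CPM (SD, n = 3) in wildtype. The calls of both spn-4 and zif-1 were lost without mutant library 22 or without mutant library 29, with adjusted p between 2.93e-04 and 0.194 for spn-4 and between 0.00122 and 0.166 for zif-1 over the 17 alternative fits (edgeR, with DESeq2 giving the lowest).

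Wildtype library 30 decided how many members passed. Its level over the mean of wildtype libraries 11 and 22 was 2.94-fold for mex-1, 2.80-fold for pie-1, 2.46-fold for mex-5 and 2.45-fold for pos-1, against 1.58-fold for spn-4, 1.23-fold for oma-2 and 1.14-fold for zif-1 (TMM-scaled; 2.11, 2.01, 1.77, 1.75, 1.14, 0.884 and 0.817 with scaling by library size alone). Ribosomal RNA genes took 13.3% of the counts of that library, against 2.40% to 6.48% in all others. Without it 9 of the 10 members were higher in the mutant, all but oma-2, against 17.7% of the genes tested in that fit, and the median log2 fold change of the members was 1.35. The share of 17.7% was not matched for level. Leaving out mutant library 22 or mutant library 29 left 0 members called in edgeR (3 at an unadjusted p under 0.05 in each case). Mutant libraries 22 and 29 were the closest pair of the series, with a chi-square per degree of freedom of 23.2 between them. The next closest pair, mutant libraries 11 and 22, was at 140.5. Whether libraries 22 and 29 stem from independent samples was not tested. The SDs, the fits on all libraries and the permutation tests count them as separate libraries.

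The number of calls also depended on the scaling. With DESeq2 and its own size factors 5 members were higher, as were 14.6% of all tested genes, mex-3 and pos-1 being added to the 3 above. With library size alone 6 were higher, mex-5 also among them, as were 13.2% of all tested genes. Neither share of all tested genes was matched for level. With upper quartile scaling spn-4 and zif-1 were higher and mex-6 was not. Over all tested genes the log2 fold change had a median of -0.21 with TMM, -0.42 with upper quartile scaling, -0.061 with the size factors of DESeq2 and 0.011 with library size alone. In each of these 4 scalings 9 of the 10 members lay above it.

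**Figure D4:**
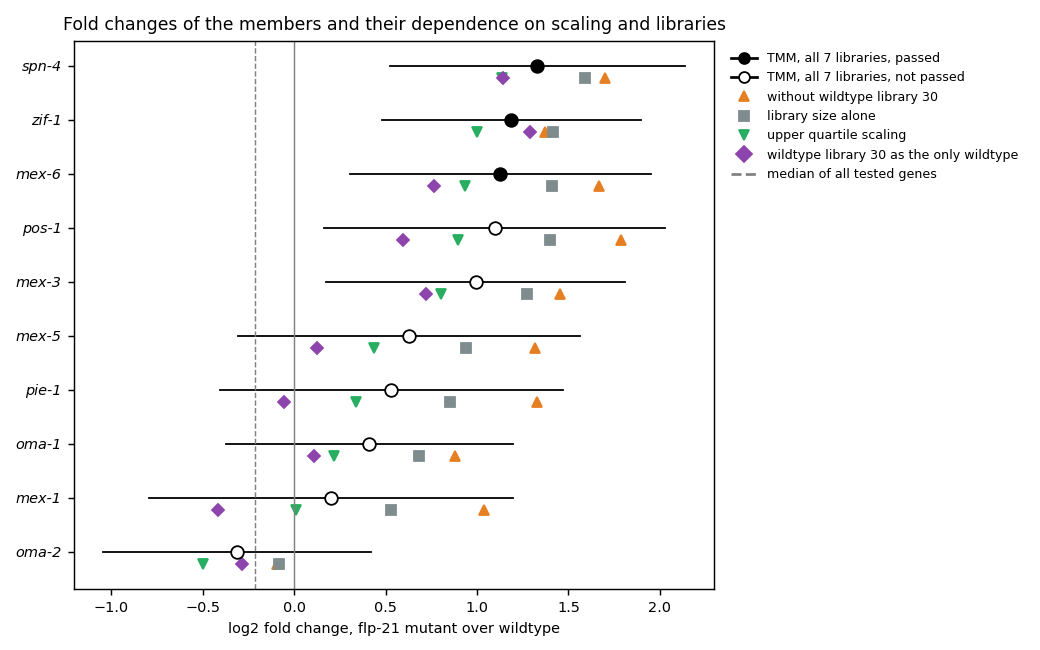
Log2 fold change of each member, flp-21 mutant over wildtype, in the fit on all 7 libraries (circles, filled where the adjusted p is under 0.05; lines are 95% intervals), and with other scalings or other wildtype libraries (coloured symbols); the dashed line is the median of all tested genes, -0.21. The estimates without wildtype library 30 lie to the right of the circles for all 10 members, from -0.09 for oma-2 to 1.79 for pos-1, and those with it as the only wildtype library lie to the left for all but zif-1 and oma-2.

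Compared per length, the members spanned a wide range of levels. The gene pos-1 was the most abundant member in all 7 libraries, at 2703 ± 301 CPM per kilobase of counted exon (SD, n = 4) in mutant embryos, against 1265 ± 716 CPM per kilobase (SD, n = 3) in wildtype, which is rank 11 in the mutant and rank 139 in wildtype among the 13035 tested genes. The gene zif-1 was the lowest member in all 7 libraries, at 114 ± 25.99 CPM per kilobase in the mutant and 49.95 ± 4.60 CPM per kilobase in wildtype, and pie-1 was next to lowest in all 7. In the mutant, pos-1 was followed by spn-4 (1185 ± 251 CPM per kilobase), mex-5 (1005 ± 183), mex-6 (642 ± 56.9), mex-3 (570.3 ± 118), mex-1 (438 ± 78.3), oma-1 (317 ± 55.2) and oma-2 (308 ± 76.5). In wildtype the order below pos-1 was mex-5 (649.8 ± 369.6 CPM per kilobase), spn-4 (472 ± 136), oma-2 (382 ± 59.96), mex-1 (381 ± 259.6), mex-6 (294 ± 128), mex-3 (287 ± 103) and oma-1 (238 ± 90.1). Some neighbours in these orders overlapped between libraries, such as spn-4 and mex-5 or oma-1 and oma-2 in the mutant. In wildtype each gene from spn-4 to oma-1 overlapped with the next. The ends of that run did not overlap, with spn-4 at 370 to 626 and oma-1 at 176 to 342 CPM per kilobase. Within each of the 4 mutant libraries spn-4 was above mex-5 and mex-6 above mex-1. Within each of the 3 wildtype libraries mex-5 was above spn-4, spn-4 was above oma-2, and oma-1 was at rank 8 of the members.

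The members also differed in how alike their patterns over the 7 libraries were. The root-mean-square distance between centred log2 CPM patterns was smallest for pie-1 and mex-5 (0.11), then mex-6 and pos-1 (0.13), pie-1 and mex-1 (0.17) and spn-4 and zif-1 (0.18). The paralogs were further apart, at 0.27 for mex-5 and mex-6 and 0.44 for oma-1 and oma-2, and oma-2 was the farthest from the mean pattern of the members (0.60, against 0.12 to 0.31 for the others). Of 7764 other genes with at least 5 CPM, the 5 nearest to the mean pattern of the members were nono-1 (0.042), the ribonucleotide reductase gene rnr-1 (0.043), ntl-11 (0.046), nasp-2 (0.049) and the nucleoside transporter gene ent-1 (0.056), and none of the 5 passed the edgeR test (adjusted p from 0.122 to 0.156). All 5 passed with DESeq2 (adjusted p from 0.0257 to 0.0457), with library size alone and without wildtype library 30. Of them nasp-2 had 2582, 3368, 3361 and 2549.9 CPM in the mutant libraries and 1366, 1323 and 2514 CPM in the wildtype libraries. Distances over these 7 libraries, whose marker sums differed, are a description of these samples.

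Among genes that act with the members, a few rose and most did not pass. For this list and those below, the share of all tested genes is not matched for level. Of the 1485 abundant genes, those tested at or above the mean level of the least abundant member, 21.9% rose and 16.6% fell. Only part of the listed genes reached that level. Of 8 genes of the zif-1 ubiquitin ligase and its cofactors 1 rose (12.5%, against 9.01% of all tested genes) and 0 fell, with a median log2 fold change of 0.26. The count was 4 without wildtype library 30, 3 with library size alone and 0 without mutant library 22 or 29 in edgeR. The gene that rose, elc-1, an elongin C gene, had 62.6, 91.1, 86.5 and 47.9 CPM in the mutant libraries and 38.2, 21.6 and 21.9 CPM in the wildtype libraries (log2 fold change 1.40, SE 0.39, edgeR adjusted p = 0.0176). The cullin gene cul-2 itself had 374 ± 80.05 CPM (SD, n = 4) in mutant embryos, against 248 ± 65.1 CPM (SD, n = 3) in wildtype and did not pass (edgeR adjusted p = 0.196). Of 14 kinase and polarity genes 3 rose (21.4%, against 9.01% of all tested genes and 21.9% of the 1485 abundant genes). None fell (0, against 29.4% and 16.6%), and the median log2 fold change was 0.72, against 0.38 for the 1485. The count was 8 without wildtype library 30, 6 with DESeq2 or library size alone, and 1 if mutant library 22 or 29 was omitted. The LKB1-like kinase gene par-4 had 124, 159, 179 and 87.2 CPM in mutant embryos, against 38.2, 35.4 and 36.1 CPM in wildtype, and it kept its call in all 17 alternative fits (log2 fold change 1.91, SE 0.35, edgeR adjusted p = 0.00243, alternatives from 4.50e-06 with DESeq2 to 0.0413). The polarity genes pkc-3 and par-3 also rose (log2 fold changes 1.25 and 1.27). The calls of elc-1, pkc-3 and par-3 were lost without mutant library 22 or without mutant library 29, and that of par-3 also with upper quartile scaling or when mutant library 11 or wildtype library 11 was left out. With a mean of at least 5 CPM those of elc-1 and par-3 were lost too (edgeR adjusted p = 0.065 and 0.0679). Under that filter 0 of the ligase genes rose, and of the kinase and polarity genes 2 rose and 1 fell, while 536 of all 7747 genes rose and 1679 fell. The kinase gene mbk-2, whose product phosphorylates OMA-1 and MEX-5 at the start of embryogenesis, had 1242 ± 247 CPM in mutant embryos, against 552 ± 333 CPM in wildtype, and its libraries did not overlap. It did not pass in edgeR (adjusted p = 0.0576) but passed in 6 of the 17 alternative fits, among them DESeq2 (adjusted p = 0.00649) and edgeR without wildtype library 30 (adjusted p = 0.0011).

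Messages that the members bind, regulate or act upstream of lay on the same side as the members in the fit on all libraries. With TMM all 11 had log2 fold changes above 0, against 44.8% of all tested genes. Their median was 0.87, against -0.21 for all tested genes and 0.38 for the 1485 abundant genes. Of the 11 messages 2 passed (18.2%, against 9.01% of all tested genes and 21.9% of the 1485 abundant genes). With a mean of at least 5 CPM, 7 of the 11 were tested, end-1, end-3, med-1 and med-2 being too low. The median of the 7 was 0.56, against 0.032 for all genes tested there, and 0 passed (edgeR adjusted p = 0.0592 for glp-1 and 0.0552 for skn-1). The Notch receptor gene glp-1, whose translation POS-1 and SPN-4 control, had 497, 597, 592 and 199 CPM in the mutant libraries and 164, 192 and 97.7 CPM in the wildtype libraries (log2 fold change 1.64, SE 0.46, edgeR adjusted p = 0.018). The mutant library 30 was just above the highest wildtype library. The endomesoderm factor gene skn-1 rose 2.15-fold, at 495 ± 146 CPM (SD, n = 4) in mutant embryos, against 231 ± 32.6 CPM (SD, n = 3) in wildtype. The MEX-3 target pal-1 and the POS-1 target neg-1 did not pass, with a log2 fold change of 0.93 for pal-1 and 0.77 for neg-1 (edgeR adjusted p = 0.0606 and 0.0582), although neither overlapped between the genotypes. Both passed with DESeq2 (adjusted p = 0.00843 for pal-1 and 0.00983 for neg-1) and with library size alone. The gene neg-1 had 115 to 125 CPM in mutant embryos, against 59.4 to 80.7 CPM in wildtype. Without wildtype library 30, 8 of the 11 rose, against 17.7% of the genes tested in that fit, while 1 of the 11 did when mutant library 11, 22 or 29 was left out and 0 when wildtype library 11 was, always by edgeR. The call of skn-1 was also lost with upper quartile scaling. For apx-1, nos-2 and mom-2, wildtype library 30 was above every mutant library. Against wildtype library 30 alone the median log2 fold change of the list was 0.27, against -0.11 for all genes tested there.

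Among 25 other RNA-binding regulators of the germ line the share that fell was near that of all tested genes. In the list 4 rose (16%, against 9.01% of all tested genes; ifet-1, gld-3, gld-2 and cpb-3) and 7 fell (28%, against 29.4%; puf-3, car-1, lin-41, cgh-1, fbf-2, puf-11 and nos-1), with a median log2 fold change of -0.43. The gene lin-41, whose product is found in oocyte particles with the OMA proteins, had 23.2, 33.5, 29.4 and 18.5 CPM in the mutant libraries and 176, 346 and 69.5 CPM in the wildtype libraries (log2 fold change -2.91, SE 0.51, edgeR adjusted p = 0.00189). Wildtype library 30 was the lowest of its group here, and against it alone the log2 fold change was -1.19 and did not pass (edgeR adjusted p = 0.0776). The DDX6 helicase gene cgh-1, of stored maternal messages, had 275, 403, 388 and 227 CPM in mutant embryos, against 1434, 3146 and 1049 CPM in wildtype (log2 fold change -2.54, SE 0.45, edgeR adjusted p = 0.00194). Oocyte and eggshell markers were lower in the same mutant libraries, as given above; the part of these in the falls was not tested. With upper quartile scaling 2 rose and 10 fell, and the number that rose was 1 without mutant library 22 or 29 and 2 without mutant library 11 or wildtype library 11. Of 7 tested genes for other CCCH proteins 1 rose (14.3%, against 9.01% of all tested genes), ccch-3, with a log2 fold change of 2.00 (SE 0.48, edgeR adjusted p = 0.00914), and 0 fell (against 29.4%), the OMA-like gene moe-3 being low, at 0.755 to 3.22 CPM in mutant embryos, against 1.88 to 5.92 CPM in wildtype. Without wildtype library 30, 2 of these 7 rose and 1 fell.

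**Figure D5:**
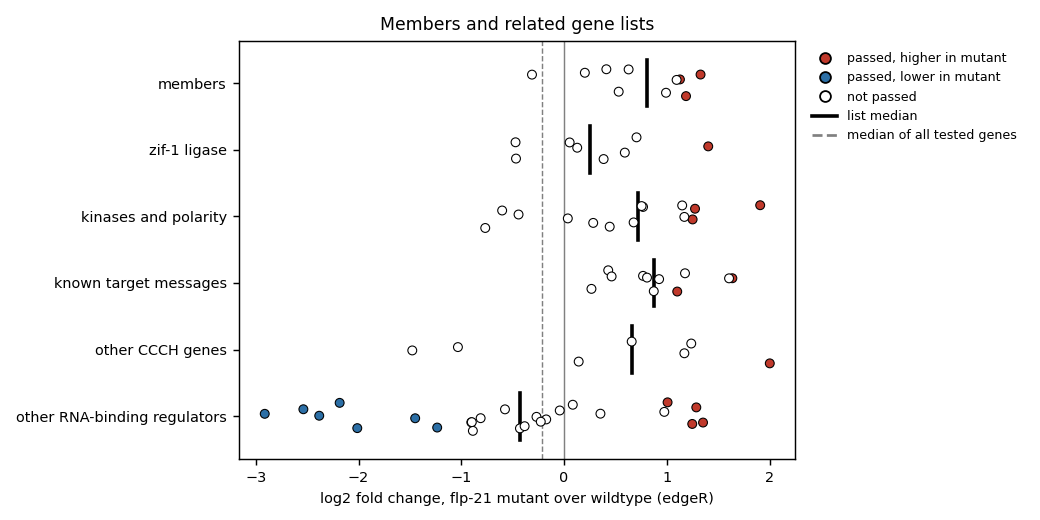
Log2 fold changes, flp-21 mutant over wildtype, of the 10 members and of 5 related gene lists; each circle is a gene (red, passed and higher in the mutant; blue, passed and lower; white, not passed), thick lines are list medians and the dashed line the median of all tested genes. Genes that fell are seen only in the list of other RNA-binding regulators, whose median is -0.43.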

How the data were processed

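The authors deposited raw counts of reads per gene. Per the file headers these were made with featureCounts 1.6.4 over exons on trimmed alignments, with an annotation of WBcel235; the command sets no strand option, and the submitters' processing notes also name BWA and DESeq2. A further deposited table holds the comparison made by the authors, with log2 fold changes and their standard errors, p-values and a mean signal in size-factor scaled counts. Their header lists a further wildtype alignment, not analysed here. Unstranded counts can mix overlapping genes: pie-1, mex-1, spn-4 and zif-1 share 6, 22, 9 and 17 exon bases with genes on the other strand (Ensembl 115 annotation of WBcel235).

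No rule on values selected the members, but they and the lists were chosen with earlier results of these data known. One count was worth 0.0186 to 0.0293 CPM before scaling. Genotypes were compared with quasi-likelihood tests in edgeR 4.0.16 (R 4.3.3, robust, TMM, filterByExpr, genotype only; common biological coefficient of variation 0.576), with DESeq2 1.42.0 as an alternative, checked on simulated data. Standard errors came from the F statistic. CPM are TMM-scaled, and patterns used log2(CPM + 0.5). Paralog shares were compared by exact permutation of library labels. Genes of the related lists with values are among the 4 with the smallest p-values of their list; the 5 genes like the members are the nearest by distance. Of the listed genes 2 had no match by symbol. Intervals of shares cover counting error only.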

Additional observations from a re-analysis of the deposited data

How the results depend on the processing

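Members called higher in the mutant numbered 3 in the fit as reported, and 0 were called lower by edgeR or DESeq2 under any of the 17 alternatives. Higher members numbered 5 with DESeq2, with DESeq2 size factors and with no filter beyond 1 count, 6 with library size alone and 6 with adult tissue, sperm, ribosomal RNA and ribosomal protein genes left out before scaling. They ranged from 0 to 9 when 1 library was left out, the 9 being without wildtype library 30 and the 0 without mutant library 22 or 29. There were 0 without mutant libraries 22 and 29 together (0 at an unadjusted p under 0.05), and 0 with wildtype library 30 as the only wildtype library (4 at an unadjusted p under 0.05), a fit with no spread between wildtype libraries; DESeq2 was not run there. Of all genes, 1175 were higher and 3829 lower; the higher ones numbered 589 to 2505 with 1 library left out, 748 with upper quartile scaling, 1902 with DESeq2 and 339 without mutant libraries 22 and 29. With a mean of at least 5 CPM, a filter that leaves 7747 genes, 536 were higher and 1679 lower, and with wildtype library 30 alone 1906 were lower. Directions reversed against wildtype library 30 alone for pie-1 (-0.055), mex-1 (-0.42) and ccch-1 (0.051), and without wildtype library 30 for elb-1 (0.27, against -0.61 to -0.41 with any other single library left out); the cause was not tested. With 1 library left out the difference in the mex-5 share was -8.49 to -5.67 percentage points and in the oma-1 share 11.4 to 16.7, designs whose smallest exact p is above the threshold. Without mutant library 22 or without mutant library 29 the exact permutation p was 0.1 for each share. The replicate numbers paired the libraries unevenly. Deviations from the group means correlated at -0.149 and 0.0933 across genes for numbers 11 and 22. For number 30 they correlated at 0.492, the highest value of any mutant and wildtype pair, and what the libraries numbered 30 share was not tested. With the replicate block 3 members were higher, the call of skn-1 was lost, pal-1 passed (adjusted p = 0.0238), and 1363 genes were higher and 3008 lower; as 3 same-numbered differences the block gave -7.81 and 13.9 percentage points for the mex-5 and oma-1 shares (exact sign-flip p = 0.25 for each, the smallest possible). Depth does not limit the members, whose lowest count was 2554.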

Other observations

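Within the members' own pool, taken as the summed CPM per kilobase of the 10 genes, the make-up of the pool differed between the genotypes without reference to any scaling. The gene oma-2 made up 3.54% to 4.66% of the pool in the mutant libraries and 6.83% to 12.7% in the wildtype libraries, and mex-1 5.45% to 6.32% in the mutant and 7.41% to 10.6% in wildtype. Also lower in the mutant, without overlap, were oma-1 and pie-1. Of the pool, oma-1 made up 4.04% to 4.46% in the mutant and 5.35% to 6.35% in wildtype, and pie-1 2.56% to 2.73% in the mutant and 2.81% to 3.76% in wildtype. In the other direction, pos-1 made up 33.1% to 42.7% in the mutant and 25.6% to 32.7% in wildtype, and mex-6 8.26% to 9.06% in the mutant and 6.91% to 7.30% in wildtype. The shares of mex-3, mex-5, spn-4 and zif-1 overlapped between the genotypes. Shares of 1 pool sum to a fixed total and are not independent of each other, and these were not tested.

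The libraries numbered 30 stood apart within their genotypes in different members. Mutant library 30 held 0.672 and 0.682 times the mean of the other mutant libraries for mex-3 and zif-1 and 1.15 times for pos-1, so that pos-1 made up 42.7% of its pool, the highest share of any member in any library. Over 38 checked results none of the 4 mutant libraries lay outside the limit of Dixon's test for groups of 4.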
